A study of Mus musculus with 24 samples.

Results

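The 9 genes described here encode C-type lectin receptors of myeloid cells: Clec4n, Clec4d, Clec4e, Clec7a, Clec5a, Clec4a2, Clec4a1, Clec4a3 and Clec12a. They were taken by gene symbol from a table of 37979 genes, and each symbol occurred 1 time. The values came from RNA sequencing of macrophages and monocytes sorted from lungs of male C57BL/6 mice of 10 to 16 weeks, with 24 libraries in 8 groups of 3. Tumours were made by injecting LLC-Luc cells, a luciferase-carrying Lewis lung carcinoma line, into the left lung, and the controls were not injected. In naive mice the groups were MacA-N, gated as SiglecF+ CD11c+; MacB1-N, gated as CD11b+ Ly6G- CD64low CD11c+; and MacB2-N, gated as CD11b+ Ly6G- CD64med CD11c-. The groups MacA-2wk and MacB2-2wk had the same gates 2 weeks after injection, and MacB2-3wk had the MacB2 gate 3 weeks after it. MacB3-2wk and MacB3-3wk were gated as CD11b+ Ly6G- CD64hi CD11c+ and came from tumour-bearing lungs at 2 and 3 weeks, by their sample titles. The design text of the series names the MacB3 samples of 2 weeks as 3wk, and the titles were followed here. Each library was a pool of 3 to 5 mice. All lobes were taken from naive mice and the left lobe from tumour-bearing mice, so tumour and lobe cannot be told apart. MacA libraries were all sequenced in lane 1, whereas replicates 1, 2 and 3 of each MacB group were sequenced in lanes 2, 3 and 7. Between MacA and MacB, population and lane cannot be told apart. No genotype differed between the groups.

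C-type lectin receptors are membrane proteins whose lectin-like domain recognises glycans and other ligands on microbes and damaged cells. Dectin-2 (Clec4n), MCL (Clec4d) and Mincle (Clec4e) signal through the adaptor FcRγ (Fcer1g), Dectin-1 (Clec7a) carries its own activating tail motif, and MDL-1 (Clec5a) uses DAP12 (Tyrobp); these routes lead to the kinase Syk and, in most cases, to the adaptor Card9 and NF-kB. DCIR (Clec4a2) and MICL (Clec12a) carry an inhibitory tail motif that recruits phosphatases such as SHP-1, and Clec4a1 and Clec4a3 are close relatives of DCIR.

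The sorting genes Siglecf, Itgam and Fcgr1 followed the gates, and Itgax, which encodes CD11c, is not given here. Siglecf, a surface protein of alveolar macrophages, was 231 ± 69.98 FPKM (fragments per kilobase of transcript, scaled to sequencing depth; mean ± SD, n = 3) in MacA-N and 5.25 ± 3.36 in MacB1-N, the highest mean of the MacB groups. Itgam, which encodes CD11b, was 17.3 ± 7.11 FPKM in MacA-2wk and 213 ± 51.1 in MacB2-3wk, the lowest MacB mean. Fcgr1, which encodes CD64, was 9.54 ± 1.12 FPKM in MacB1-N, 73.2 ± 15.4 in MacB2-N and 181 ± 6.86 in MacB3-2wk, the order of the CD64 gates. Ly6g, the neutrophil marker gated out, was 1 of 14133 genes listed at 0 in every library. Each library had 15599 to 18522 genes above 0; the depth is unknown, so no counting interval can be given. Replicate 1 of MacA-N, replicate 3 of MacB1-N and replicate 3 of MacB2-N were each the lowest of their group for 7 of the 9 genes.

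All 9 genes lie on mouse chromosome 6 (GRCm38 positions, GENCODE M21). Clec4a1 (chr6:122921848-122934619, plus strand), Clec4a3 (chr6:122952515-122969875, plus), Clec4a2 (chr6:123106428-123143999, plus), Clec4n (chr6:123229843-123247021, plus), Clec4d (chr6:123262111-123275265, plus) and Clec4e (chr6:123281789-123289870, minus) form, in this order, a cluster of 368023 bases. That cluster holds 9 protein-coding genes, among them Clec4a4, Clec4b1 and Clec4b2, which had group means of at most 1.57, 17.9 and 0.123 FPKM. Clec12a (chr6:129342691-129365303, plus) and Clec7a (chr6:129461591-129472779, minus, typed as a polymorphic pseudogene in this annotation) lie farther along, and Clec5a (chr6:40574894-40585821, minus) lies apart. Transcript windows of 50 bases were compared only among the 9 genes and the protein-coding genes of the cluster. Of the windows of Clec4a2, 6.15% were shared within this set, most with Clec4a4 (3.85%), so the level of Clec4a2 is uncertain. No window of the other 8 genes was shared within this set, and transcripts of genes outside it were not searched.

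Promoter windows of 250 bases before the RefSeq start site are shown for 5 genes that differed in direction between MacB2-3wk and MacB2-N: Clec5a and Clec4d were higher in MacB2-3wk, Clec4a1 and Clec12a were lower, and Clec4e, the neighbour of Clec4d, was not called. Sequences are from RefSeq on GRCm38.p6, 5′ to 3′ on the strand of the gene, and 8 of the 9 genes had an entry, Clec4n being the exception. Capitals mark GAGGAA, the core bound by PU.1, and TTGCNNAA, a C/EBP motif, each on either strand; no matches shown overlap, and the C/EBP match of Clec12a reads alike on both strands.
Clec5a (chr6:40585806-40586055, minus): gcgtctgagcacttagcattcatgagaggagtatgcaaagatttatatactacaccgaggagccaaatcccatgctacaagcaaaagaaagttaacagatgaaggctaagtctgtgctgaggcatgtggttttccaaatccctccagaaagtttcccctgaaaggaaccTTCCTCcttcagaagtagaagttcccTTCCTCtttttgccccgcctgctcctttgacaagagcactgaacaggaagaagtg
Clec4d (chr6:123261857-123262106, plus): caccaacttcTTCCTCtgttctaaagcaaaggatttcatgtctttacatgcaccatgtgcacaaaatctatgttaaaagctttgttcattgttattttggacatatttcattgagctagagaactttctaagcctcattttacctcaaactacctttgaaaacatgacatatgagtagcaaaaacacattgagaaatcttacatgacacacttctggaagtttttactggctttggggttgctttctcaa
Clec4e (chr6:123289872-123290121, minus): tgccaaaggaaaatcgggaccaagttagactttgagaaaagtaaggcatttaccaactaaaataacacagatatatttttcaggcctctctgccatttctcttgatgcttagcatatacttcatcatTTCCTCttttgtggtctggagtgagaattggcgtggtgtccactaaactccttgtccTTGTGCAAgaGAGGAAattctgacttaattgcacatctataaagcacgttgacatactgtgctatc
Clec4a1 (chr6:122921598-122921847, plus): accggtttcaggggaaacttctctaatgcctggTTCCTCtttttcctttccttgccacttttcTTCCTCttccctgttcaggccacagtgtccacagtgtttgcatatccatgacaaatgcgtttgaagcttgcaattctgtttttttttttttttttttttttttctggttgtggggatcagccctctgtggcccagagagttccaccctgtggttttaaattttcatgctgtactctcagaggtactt
Clec12a (chr6:129349994-129350243, plus): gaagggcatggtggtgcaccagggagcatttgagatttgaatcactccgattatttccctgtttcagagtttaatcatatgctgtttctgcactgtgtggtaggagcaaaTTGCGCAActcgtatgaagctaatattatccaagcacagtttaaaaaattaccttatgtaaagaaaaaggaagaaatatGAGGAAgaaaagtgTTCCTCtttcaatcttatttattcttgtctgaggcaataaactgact
GAGGAA occurred in 7 of the 8 genes, the exception being Clec4a2 (for Clec4a3 in 1 of its 2 windows), and in 23.3% of 32851 mouse promoter windows of the same length. TTGCNNAA occurred in Clec4e and Clec12a and in 9.56% of all windows. Of the other motifs searched, ACGTG (hypoxia response, 16.6% of all windows) occurred in Clec4e, and TGANTCA (AP-1, 6.75%) in Clec12a. An interferon response motif (2.98%) and an NF-kB motif (0.356%), both searched on either strand, had no match in the windows of the 8 genes. These matches describe letters in the window, and genes of both directions carried GAGGAA. The windows of Clec12a and Clec4a2 lie inside the GENCODE extents of these genes, so the RefSeq and GENCODE starts differ there.

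The receptor genes were abundant, and each gate had its own mix. Summed over the 9 genes, MacB1-N had the lowest mean, 729.9 ± 185 FPKM, and MacB3-2wk the highest, 2227 ± 139. Clec4n had the highest level of the 9 in all 6 MacA and all 6 MacB3 libraries, and Clec4e in all 9 MacB2 libraries. In MacB1-N it was Clec4a1 in 2 libraries and Clec4e in 1. As a share of the sum (mean ± SD, n = 3), Clec4n made up 47.1% ± 5.06 in MacA-N, 5.83% ± 0.749 in MacB1-N and 6.15% ± 1.20 in MacB2-N. With tumours its share was 25.6% ± 2.19 in MacB2-3wk and 50.6% ± 3.20 in MacB3-3wk, while that of Clec4a1 was 31% ± 4.66 in MacB1-N and 3.68% ± 0.726 in MacB3-3wk. In bulk samples, fewer cells of a type and less RNA per cell cannot be told apart.

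**Figure D1:**
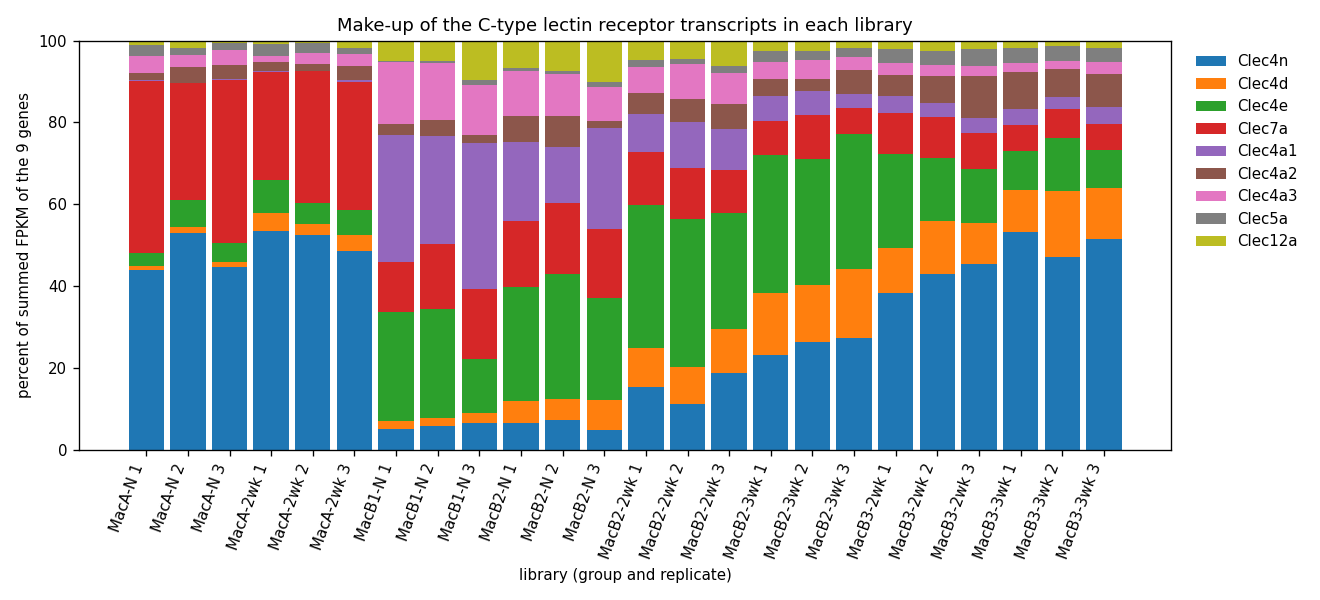
Each bar is 1 of the 24 libraries, and its segments are the percent of the summed FPKM of the 9 genes taken by each gene. Clec4n fills the largest segment in every MacA and MacB3 library, Clec4e in every MacB2 library, and Clec4a1 is nearly absent from MacA.

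Of the receptors coupled to FcRγ, Clec4n, which encodes the mannan receptor Dectin-2, had a wide range, from 34.4 to 1267 FPKM. In replicates 1, 2 and 3 it was 489, 1224 and 745 FPKM in MacA-N, 44.5, 46.1 and 34.4 in MacB1-N and 83, 104 and 39.1 in MacB2-N. In tumour-bearing lungs it was 1267, 1066 and 578 in MacA-2wk, 224, 146 and 289 in MacB2-2wk and 295, 335 and 464 in MacB2-3wk. The MacB3 libraries were at 838, 908 and 1079 at 2 weeks and 941, 976 and 913 at 3 weeks. The 4 groups of MacA and MacB3 overlapped one another at the top of the order, MacB2-3wk, MacB2-2wk and MacB2-N followed without overlap between neighbours, and MacB1-N overlapped MacB2-N at the bottom.

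Clec4d encodes MCL, which binds mycobacterial glycolipid and pairs with Mincle. It was 12.6, 33.4 and 21.6 FPKM in MacA-N, 15.4, 16 and 11.9 in MacB1-N and 72.2, 73.9 and 58.8 in MacB2-N, so that MacB2-N lay above both other naive groups. At 2 weeks after injection it was 103, 54 and 44.2 in MacA-2wk, 144, 118 and 165 in MacB2-2wk and 240.5, 276 and 239 in MacB3-2wk. At 3 weeks it was 193, 179 and 288 in MacB2-3wk and 181, 335 and 221 in MacB3-3wk. The 3 highest group means, those of MacB3-2wk, MacB3-3wk and MacB2-3wk, overlapped in range, and MacB2-2wk and MacB2-N stood below them without overlap.

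Clec4e encodes Mincle, a receptor for mycobacterial cord factor and for a protein released by dying cells. Its naive values were 35.1, 153 and 79 FPKM in MacA-N, 231, 216 and 68.3 in MacB1-N and 359, 447 and 201 in MacB2-N. With tumours it was 191, 104 and 72.6 in MacA-2wk, 512, 477 and 440.5 in MacB2-2wk and 433, 389.8 and 559 in MacB2-3wk. MacB3 cells had 502, 326 and 319 at 2 weeks and 166, 269 and 167 at 3 weeks. Every pair of neighbours in its order of group means overlapped, with MacB2-2wk at the top and MacA-N at the bottom. The ratio of Clec4d to its neighbour Clec4e was 0.0665 to 0.174 over the MacB1-N libraries, 0.165 to 0.292 in MacB2-N, 0.247 to 0.375 in MacB2-2wk and 0.446 to 0.516 in MacB2-3wk. In MacB3 it was 0.479 to 0.846 at 2 weeks and 1.09 to 1.32 at 3 weeks. MacB2-2wk overlapped MacB2-N and MacB3-2wk overlapped MacB2-3wk, while MacB2-3wk stood above MacB2-2wk and MacB3-3wk above all other MacB groups.

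Clec7a, which encodes the beta-glucan receptor Dectin-1, was highest in MacA. It was 467, 661 and 666 FPKM in MacA-N and 625, 652 and 372 in MacA-2wk. Among naive MacB cells it was 105, 129 and 88.5 in MacB1-N and 208, 251 and 135 in MacB2-N. In tumour-bearing lungs it was 191, 164 and 162 in MacB2-2wk, 104, 138 and 108 in MacB2-3wk, 218, 212 and 208 in MacB3-2wk and 111, 146 and 112 in MacB3-3wk. No MacB library reached the lowest MacA library. Clec5a, which encodes MDL-1, was low in naive MacB cells, at 2.29, 2.42 and 5.48 FPKM in MacB1-N and 8.92, 10.7 and 10.5 in MacB2-N. It was 23, 18.7 and 27.3 in MacB2-2wk, 33.8, 29.2 and 35.7 in MacB2-3wk, 76.3, 73.6 and 97.3 in MacB3-2wk and 62.8, 77.2 and 60.8 in MacB3-3wk, so that the MacB groups followed one another without overlap up to MacB3, whose 2 groups overlapped. MacA had 29.8, 37.9 and 29.2 in naive and 66.5, 47.4 and 17.9 in tumour-bearing lungs.

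Among the DCIR relatives, Clec4a1 separated MacA from MacB. It was 2.44, 2.07 and 2.95 FPKM in MacA-N and 3.82, 0.899 and 6.63 in MacA-2wk. In naive MacB cells it was 268, 214 and 185 in MacB1-N and 249, 198 and 199 in MacB2-N, which overlapped. It was 138, 146 and 156 in MacB2-2wk, 79.7, 74.7 and 60.3 in MacB2-3wk, 87.4, 69.7 and 88.1 in MacB3-2wk and 69.8, 59.3 and 75.1 in MacB3-3wk, with MacB2-2wk alone between the naive MacB groups and the other 3. Clec4a3 was 48.2, 69.6 and 60.02 FPKM in MacA-N, 130.2, 114 and 64.2 in MacB1-N, 142, 149.7 and 66.4 in MacB2-N and 37.9, 52.8 and 35.1 in MacA-2wk. The remaining groups had 94.2, 111 and 118 in MacB2-2wk, 50.8, 56.4 and 54.3 in MacB2-3wk, 64.6, 54.8 and 58.8 in MacB3-2wk and 37.2, 39.9 and 52.4 in MacB3-3wk. Replicate 3 of both naive MacB groups lay near the MacB3-2wk values, and all neighbours in the order overlapped.

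The inhibitory receptors differed from each other. Clec4a2, which encodes DCIR, was 19, 90.3 and 56.1 FPKM in MacA-N, 21.9, 31.7 and 10.2 in MacB1-N, 81.4, 111 and 15.5 in MacB2-N and 53.3, 35.8 and 40.01 in MacA-2wk. It was 77.3, 75.7 and 92.3 in MacB2-2wk, 53.7, 38.1 and 98.8 in MacB2-3wk, 114, 141 and 245 in MacB3-2wk and 162, 143 and 142 in MacB3-3wk, so both MacB3 groups stood above every other library. Clec12a, which encodes MICL, a receptor for uric acid crystals, was 11.1, 40.9 and 11.2 FPKM in MacA-N, 43.5, 41.3 and 50.2 in MacB1-N, 88, 108 and 80.9 in MacB2-N and 19.9, 13.6 and 21.3 in MacA-2wk. Its other values were 70.8, 57.8 and 95 in MacB2-2wk, 34, 32.4 and 31 in MacB2-3wk, 42.2, 53.8 and 49 in MacB3-2wk and 33.5, 28.2 and 31.9 in MacB3-3wk. MacB2-N and MacB2-2wk overlapped at the top, and MacB2-3wk and MacB3-3wk stood below all other MacB groups.

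**Figure D2:**
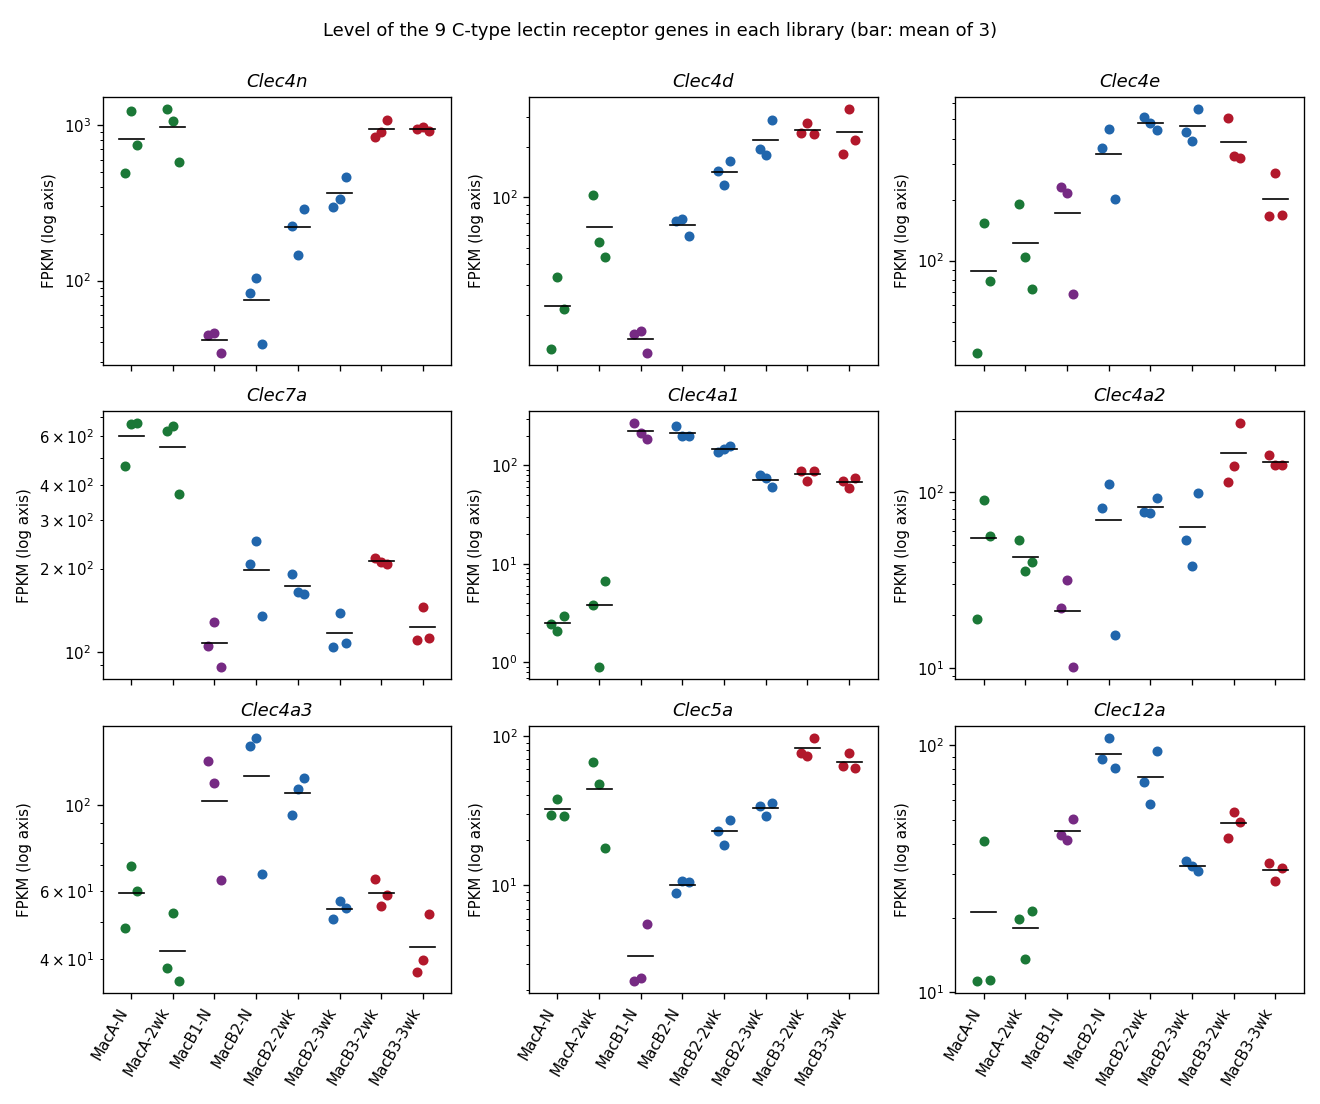
Each panel is 1 gene, each point 1 library in FPKM on a log axis, and each bar the mean of the 3 libraries of a group; colour gives the gate (green MacA, purple MacB1, blue MacB2, red MacB3). Clec4n and Clec5a step up from MacB1-N through MacB2 to MacB3, while Clec4a1 steps down and is near 0 in MacA.

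The first comparisons asked how the receptors differed between cell populations of naive lung. Differences were tested with limma on log2(FPKM + 1) over 17156 genes, and a gene was called with an adjusted p under 0.05 and a fold of at least 2 on that scale, which understates the change of low genes. In MacB1-N against MacA-N, 2 of the 9 genes were higher and 3 lower, where 15% of all genes were called higher and 8.71% lower; the median log2 fold change of the 9 was -0.52, against 0.12 over all genes. Clec4a1 was 63.6-fold higher (log2 fold change 5.99, SE 0.32, adjusted p = 6.08e-11) and Clec12a 2.50-fold higher (log2 fold change 1.32, SE 0.33, adjusted p = 0.00444). Clec4n was 18.1-fold lower (log2 fold change -4.18, SE 0.37, adjusted p = 4.5e-08), Clec5a 7.92-fold lower (log2 fold change -2.99, SE 0.33, adjusted p = 1.03e-06) and Clec7a 5.52-fold lower (log2 fold change -2.46, SE 0.24, adjusted p = 1.51e-07). With only the 2 groups compared in the fit, the call of Clec12a was lost (adjusted p = 0.0829). Without replicate 1 of MacA-N, Clec4a2 was called lower, and without replicate 3 of MacB1-N, Clec4e and Clec4a3 were called higher, Clec4e also without replicate 2 of MacA-N. In MacB2-N against MacA-N, 4 of 9 were higher and 3 lower, where 10.7% of all genes were called higher and 10.2% lower. Clec4a1 (62-fold), Clec12a (5.05-fold), Clec4e (4.19-fold) and Clec4d (3.14-fold) were higher, with adjusted p of 4.85e-11, 1.74e-05, 0.00321 and 0.000534. Clec4n (10.8-fold), Clec7a (3.07-fold) and Clec5a (3.00-fold) were lower, with adjusted p of 5.33e-07, 2.78e-05 and 0.00113. Clec4a3 was called higher without replicate 2 of MacA-N or replicate 3 of MacB2-N. The summed level of 7 alveolar macrophage markers was 5996 to 7654 FPKM in MacA-N, 240.4 to 612 in MacB1-N and 242 to 536 in MacB2-N. Among these markers are Siglecf and Itgax, which encode the proteins of the MacA gate.

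Between the naive MacB populations, Clec4d was 4.50-fold lower in MacB1-N than in MacB2-N (log2 fold change -2.17, SE 0.32, adjusted p = 0.000199), and Clec5a 2.64-fold lower (log2 fold change -1.40, SE 0.33, adjusted p = 0.0132). These 2 of 9 were the genes called, where 3.5% of all genes were called higher and 1.7% lower. The call of Clec5a was lost without replicate 1 or 2 of MacB1-N (adjusted p = 0.0602 and 0.0622), without replicate 2 of MacB2-N (0.0552) and with only these groups in the fit (0.0980). Without replicate 3 of MacB2-N, Clec4n (-1.15), Clec7a (-1.10) and Clec4a2 (-2.24, all log2 fold changes) were also called lower, giving 5 in all. Clec12a at -1.01 (adjusted p = 0.0749) passed when the MacB libraries were fitted alone (0.00211), also with the lane block (0.00484). For Clec4a1 the difference was 0.04 on the log2 scale with a 95% interval of -0.63 to 0.70. The 9 conventional dendritic cell markers summed to 303 to 417 FPKM in MacB1-N and 38 to 51 in MacB2-N, and the 4 classical monocyte markers to 109 to 117 and 2756 to 3552. None of them was at 0 throughout either group, and their part in the result was not tested.

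The next comparisons asked what changed with the tumour inside the MacB2 gate. After 3 weeks, 3 of the 9 genes rose and 3 fell, where 9.67% of all genes were called higher and 5.04% lower. Clec4n rose 5.07-fold (log2 fold change 2.34, SE 0.37, adjusted p = 0.000139), Clec4d 3.14-fold (log2 fold change 1.65, SE 0.32, adjusted p = 0.00101) and Clec5a 3.07-fold (log2 fold change 1.62, SE 0.33, adjusted p = 0.00168). Clec4a1 fell 2.99-fold (log2 fold change -1.58, SE 0.32, adjusted p = 0.00136), Clec12a 2.77-fold (log2 fold change -1.47, SE 0.33, adjusted p = 0.00325) and Clec4a3 2.07-fold (log2 fold change -1.05, SE 0.28, adjusted p = 0.0107). Of the activating receptors, Clec4n, Clec4d and Clec5a were called higher, whereas Clec4e and Clec7a were not called. Of the inhibitory receptors, Clec12a was called lower and Clec4a2 was not called. The groups did not overlap for any of the 6 called genes, and how many of all genes had no overlap was not counted. Within run lanes 2, 3 and 7 the log2 difference was 1.82, 1.67 and 3.54 for Clec4n, 1.41, 1.26 and 2.27 for Clec4d, 1.81, 1.37 and 1.67 for Clec5a, -1.63, -1.39 and -1.71 for Clec4a1 and -1.35, -1.70 and -1.35 for Clec12a. For Clec4a3 it was -1.47, -1.39 and -0.28, smallest in lane 7. The call of Clec4a3 was lost without replicate 1 or 2 of MacB2-N (adjusted p = 0.0576 and 0.0603), with only the groups compared (0.0837) and, by its fold, under quantile normalization (log2 fold change -0.98). Clec7a at -0.72 passed the p (adjusted p = 0.0369) but not the fold. Clec4e at 0.51 (95% interval -0.51 to 1.54) and Clec4a2 at 0.16 (-1.10 to 1.42) were not called.

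Markers of other cells also differed between MacB2-N and MacB2-3wk, with none at 0 throughout either group in the next 5 lists. The 5 nonclassical monocyte markers, all called lower, summed to 2106 to 2949.5 and 415 to 826 FPKM. The 4 classical monocyte markers, 3 of them called lower, summed to 2756 to 3552 and 1039 to 1094. The 5 endothelial markers, 3 of them called lower, summed to 72.4 to 308 and 34.8 to 45.4, and the 6 fibroblast markers, 5 of them called higher, to 19.1 to 40.9 and 458 to 866. Epithelial markers went in both directions, with 1 of 5 called higher and 2 lower. Their sums, 3090.3 to 10279 and 592 to 844 FPKM, were mostly Scgb1a1, whereas Krt18 was 2.00, 1.89 and 1.02 in MacB2-N and 42.6, 39.4 and 37.5 in MacB2-3wk. The 12 markers of neutrophils, which are known to express Clec4d, Clec4e and Clec5a too, summed to 243 to 295 and 224 to 283 FPKM, with 1 of 9 tested called higher and 1 lower, and Ly6g at 0. Within that sum, Csf3r was 195, 216 and 207 in MacB2-N and 51, 81.4 and 68.1 in MacB2-3wk, while S100a8 was 13, 15.8 and 5.96 and 113, 68.1 and 108 and S100a9 ranged from 5.07 to 11.2 and from 36.5 to 55.3, with no overlap between the groups for any of these 3. These 5 single markers were chosen after their values were seen, and the part of the markers in the receptor differences was not tested.

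At 2 weeks, Clec4n was the gene called in MacB2, 3.00-fold higher (log2 fold change 1.59, SE 0.37, adjusted p = 0.0267), 1 of 9 where 1.66% of all genes were called higher and 0.227% lower. That call was lost without replicate 1 or 3 of MacB2-N (adjusted p = 0.0509 and 0.116), without replicate 1 or 3 of MacB2-2wk (0.0748 and 0.149) and with only the groups compared (0.260). Clec4d at 1.04 and Clec5a at 1.11 (log2 fold changes, adjusted p = 0.107 and 0.0964) were called when the 18 MacB libraries were fitted alone (0.0249 and 0.0185), and also with run lane as a replicate block in that fit (0.0419 and 0.0139), giving 3 genes. From 2 to 3 weeks Clec12a fell 2.21-fold (log2 fold change -1.15, SE 0.33, adjusted p = 0.0439), 1 of 9 where 3.06% of all genes were called higher and 1.28% lower. This call was lost when any 1 of the 6 libraries was left out (adjusted p of 0.0540 to 0.132), with the replicate number as a block (0.0555), with a pseudocount of 0.1 (0.0595), without the filter (0.0565) and with only the groups compared (0.0514). Clec4a1 at -1.03 (adjusted p = 0.0576) passed with the block (0.0475).

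In MacA cells the tumour-bearing and naive groups overlapped for all of the 9 genes but Clec4d. How many of all genes had no overlap was not counted. Clec4d was called 2.90-fold higher at 2 weeks (log2 fold change 1.54, SE 0.32, adjusted p = 0.0219). This was 1 of 9 genes, where 0.729% of all genes were called higher and 0.0583% lower. The call was lost without replicate 1 or 3 of MacA-N (adjusted p = 0.133 and 0.0692), without replicate 1 of MacA-2wk (0.102) and with only the groups compared (0.547). Clec4a1, which was 147 ± 9.35 FPKM in MacB2-2wk, was at most 6.63 FPKM in MacA-2wk. The 4 classical monocyte markers summed to 3.85 to 9.04 FPKM in MacA-N and 17.1 to 25.6 in MacA-2wk, and the 6 fibroblast markers to 7.91 to 15.5, with 1 at 0 throughout the group, and 26.1 to 250.01. The difference between the 2-week changes of MacB2 and MacA was tested directly and called for none of the 9 genes, where 0.221% of all genes were called. For Clec4n it was 1.32 on the log2 scale with a 95% interval of 0.23 to 2.40 (adjusted p = 0.393, unadjusted p = 0.0201). Of the 9, only Clec4n had an unadjusted p under 0.05 in this test.

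MacB3, whose samples came from tumour-bearing lungs alone, was compared with MacB2 of the same time by the sample titles. At 2 weeks Clec4n was 4.41-fold higher in MacB3 (log2 fold change 2.14, SE 0.37, adjusted p = 0.000747) and Clec5a 3.48-fold higher (log2 fold change 1.80, SE 0.33, adjusted p = 0.00152), 2 of 9 where 3.15% of all genes were called higher and 4.21% lower. The median log2 fold change of the 9 was 0.30, against -0.08 over all genes. Both calls held with each of the 6 libraries left out in turn, and within lanes 2, 3 and 7 the log2 differences were 1.90, 2.63 and 1.90 for Clec4n and 1.69, 1.92 and 1.79 for Clec5a. Of the others, Clec4a2 was 0.95, Clec4d 0.83, Clec7a 0.30, Clec12a -0.59, Clec4a1 -0.84 and Clec4a3 -0.84 on the log2 scale. None of these was called, although their libraries did not overlap. For Clec4e, at -0.35, the libraries overlapped. How many of all genes had no overlap was not counted. At 3 weeks Clec4n was 2.63-fold higher (log2 fold change 1.39, SE 0.37, adjusted p = 0.0385), 1 of 9 where 1.61% of all genes were called higher and 1.03% lower. This call was lost with the replicate block (adjusted p = 0.0517), with no filter on low values (0.0521) and when any library other than replicate 3 of MacB2-3wk was left out (0.101 to 0.142). Clec5a missed the threshold at 1.00 (adjusted p = 0.121), and Clec4e was -1.21 (0.226). From 2 to 3 weeks none of the 9 genes was called within MacB3 by limma, where 0.315% of all genes were called; 1 of them, Clec7a at -0.80, had an unadjusted p under 0.05. For Clec4n that difference was 0.01, with a 95% interval of -0.76 to 0.78. The change from 2 to 3 weeks was not called different between MacB3 and MacB2 for any of the 9 genes, where 0% of all genes were called, and none of the 9 had an unadjusted p under 0.05.

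The 12 neutrophil markers summed to 96.2 to 115 FPKM in MacB3-2wk, with Ly6g, Camp, Ngp and Elane at 0 throughout. In MacB2-2wk they summed to 165 to 448, with only Ly6g, which was at 0 in every library, at 0 throughout. The 7 alveolar macrophage markers summed to 84.7 to 135 and 362 to 396 FPKM in these groups, against 4870.3 to 6035 in MacA-2wk. They include Siglecf and Itgax, which encode proteins used in the gates. The Clec4n values of MacB3-2wk and MacA-2wk overlapped, and the part of the neutrophil and alveolar macrophage markers in the result was not tested. The 4 classical monocyte markers, all called lower in MacB3, summed to 609 to 790.5 FPKM in MacB3-2wk and 2064 to 2361 in MacB2-2wk, and their part in the result was not tested.

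Directly compared, MacB3-2wk and MacA-2wk differed in Clec4n by 0.02 on the log2 scale, with a 95% interval of -0.74 to 0.79. In MacB3-2wk 6 of the 9 genes were higher and 1 lower, where 7.2% of all genes were called higher and 7.28% lower. Clec4a1 was 19.98-fold higher (log2 fold change 4.32, SE 0.32, adjusted p = 7.5e-09), Clec4d 3.96-fold (log2 fold change 1.99, SE 0.32, adjusted p = 0.000136) and Clec12a 2.59-fold (log2 fold change 1.37, SE 0.33, adjusted p = 0.00499). Clec7a was 2.50-fold lower (log2 fold change -1.32, SE 0.24, adjusted p = 0.00041). The other 3 calls were lost when some single libraries were left out. Clec4a2 (1.87) lost its call without replicate 2 or 3 of either group (adjusted p of 0.0577 to 0.135), Clec4e (1.72) without replicate 2 or 3 of MacA-2wk or replicate 1 of MacB3-2wk (0.0509 to 0.0741), and Clec5a (1.07) without replicate 3 of MacA-2wk or replicate 1 or 3 of MacB3-2wk (0.0524 to 0.157) and with only the groups compared (0.179); under quantile normalization its log2 fold change was 0.99. In MacB2-2wk against MacA-2wk, 5 were higher and 2 lower, where 9.57% of all genes were called higher and 8.15% lower. Clec4a1 (35.8-fold), Clec4e (4.18-fold), Clec12a (3.91-fold), Clec4a3 (2.56-fold) and Clec4d (2.23-fold) were higher, and Clec4n (4.34-fold) and Clec7a (3.09-fold) lower, with adjusted p of at most 0.0116. The call of Clec4d was lost without replicate 3 of MacA-2wk (adjusted p = 0.0564) and with only the groups compared (0.0685), and Clec5a was called lower without replicate 3 of MacA-2wk (-1.27).

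MacB3-2wk was compared next with MacB1-N, the CD11c+ MacB group of naive lung. Their CD64 gates differed, and neither gate had both naive and tumour-bearing samples. Gate, tumour and lobe therefore cannot be told apart here. In MacB3-2wk against MacB1-N, 4 of the 9 genes were higher and 1 lower, where 8.32% of all genes were called higher and 13.1% lower; the median of the 9 was 1.31, against -0.11 over all genes. Clec4n was 22.2-fold higher (log2 fold change 4.47, SE 0.37, adjusted p = 4.96e-08), Clec5a 19.8-fold (log2 fold change 4.31, SE 0.33, adjusted p = 2.48e-08), Clec4d 16.5-fold (log2 fold change 4.04, SE 0.32, adjusted p = 3.36e-08) and Clec4a2 7.82-fold (log2 fold change 2.97, SE 0.60, adjusted p = 0.00105). Clec4a1 was 2.68-fold lower (log2 fold change -1.42, SE 0.32, adjusted p = 0.00221). Clec4e at 1.31 missed the threshold (adjusted p = 0.0516) and passed with the replicate block (0.0423), with median-ratio scaling, with a filter at 5 FPKM, or without replicate 1 or 2 of MacB1-N. Clec7a passed the p (0.00371) at a fold of 1.99, and was called without replicate 2 of MacB1-N or replicate 3 of MacB3-2wk; without replicate 3 of MacB1-N, Clec4a3 was called lower (-1.03). The 9 dendritic cell markers summed to 19.6 to 42.9 FPKM in MacB3-2wk, against 303 to 417 in MacB1-N, and the 5 epithelial markers to 136 to 583 against 3048 to 12838. All 5 nonclassical monocyte markers were lower, with sums of 277 to 877 against 3067 to 4787, as were all 5 endothelial markers, with 39 to 62.1 against 289 to 383, and 3 of 4 T cell markers tested, with 2.05 to 12.3 against 21.6 to 45.7. In the other direction, 3 of 4 macrophage markers were higher, with sums of 1944 to 2529 against 905 to 1349.97, and 3 of 4 classical monocyte markers, with 609 to 790.5 against 109 to 117. None of these markers was at 0 throughout either group, and their part in the result was not tested. The macrophage markers include Fcgr1, which encodes CD64, so its direction was set by the CD64 gates.

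**Figure D3:**
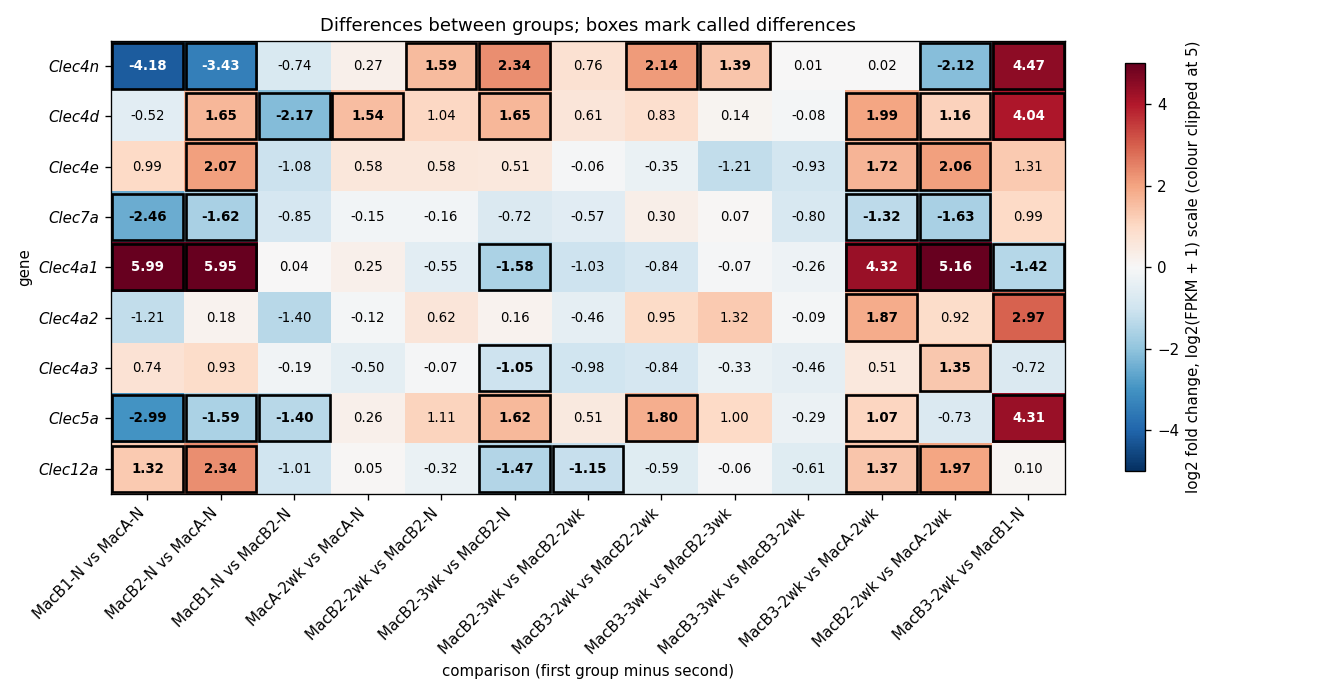
Each cell gives the log2 fold change of 1 gene in 1 of 13 comparisons, first group minus second, on the log2(FPKM + 1) scale; boxes and bold type mark the calls, and the colour stops at 5. Clec4n carries boxes in 8 columns with both signs, Clec4a1 is boxed positive in the 4 comparisons with MacA and negative in 2 within MacB, and MacB3-3wk against MacB3-2wk has no box.

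The calls can also be read along the chromosomal cluster. In MacB2-3wk against MacB2-N, the first 2 genes, Clec4a1 and Clec4a3, fell, and Clec4n and Clec4d near the other end rose. In MacB3-2wk against MacB1-N, Clec4a1 was lower, while Clec4a2, Clec4n and Clec4d were higher. These comparisons share no library, but they come from the same fit and the same run lanes. Both also set the left lobe of tumour-bearing mice against all lobes of naive mice. Clec4e, at the end of the cluster, was called in neither. Comparisons with MacA had another order: in MacB2-N against MacA-N, Clec4a1, Clec4d and Clec4e were higher and Clec4n lower, and in MacB3-2wk against MacA-2wk, Clec4a1, Clec4a2, Clec4d and Clec4e were all higher.

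**Figure D4:**
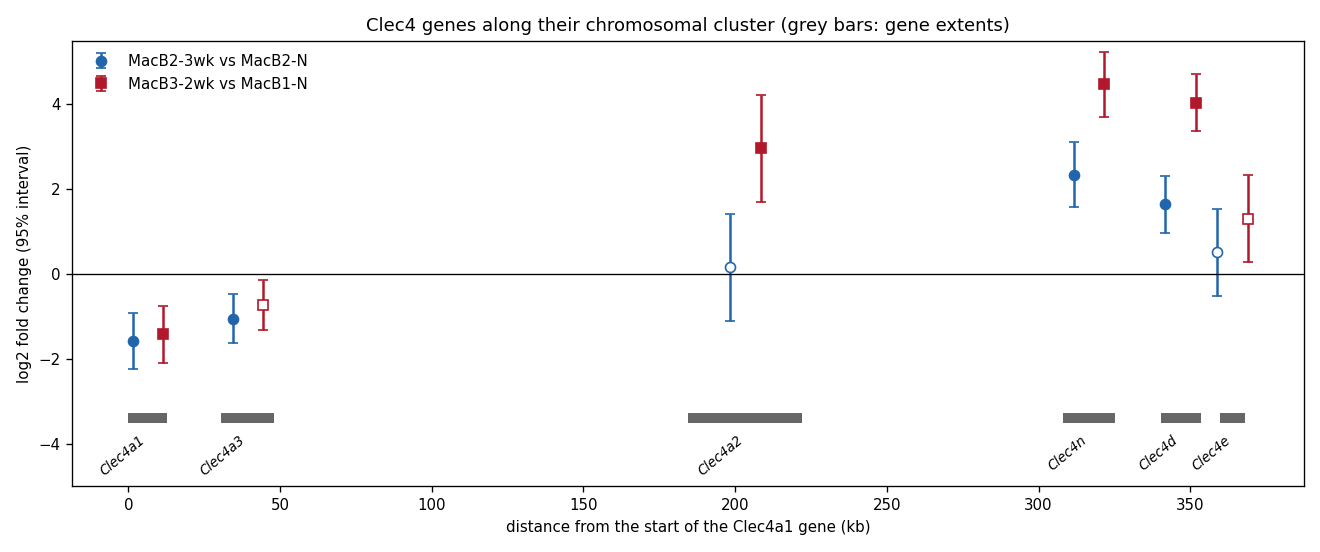
Points give the log2 fold change of the 6 Clec4 genes with its 95% interval, placed by distance from the start of Clec4a1 in kb, for MacB2-3wk against MacB2-N (blue circles) and MacB3-2wk against MacB1-N (red squares); filled symbols were called, and symbols are shifted sideways to stay apart. Clec4a1 and Clec4a3 at the left lie below 0 and Clec4n and Clec4d lie above it.

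Over the 18 MacB libraries, which share groups and lanes, the log2 levels of Clec4n correlated with those of Clec5a (Pearson r = 0.96), Clec4d (0.90) and Clec4a2 (0.85), and negatively with Clec4a1 (-0.89). Clec4a1 correlated with Clec4a3 (0.86) and Clec12a (0.69). Clec4n and Clec4e, by contrast, had an r of 0.31. Over all 24 libraries Clec4n and Clec4d had an r of 0.49, with MacA-N libraries at high Clec4n and low Clec4d. The ratio of Clec4n to Clec4a1 was 0.166 to 0.216 in MacB1-N, 0.196 to 0.528 in MacB2-N, 1.00 to 1.85 in MacB2-2wk, 3.70 to 7.70 in MacB2-3wk, 9.59 to 13 in MacB3-2wk and 12.1 to 16.5 in MacB3-3wk. The 2 naive ranges overlapped, as did the 2 MacB3 ranges, and the other neighbours did not. In MacA-N the ratio was 200.2 to 592.

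**Figure D5:**
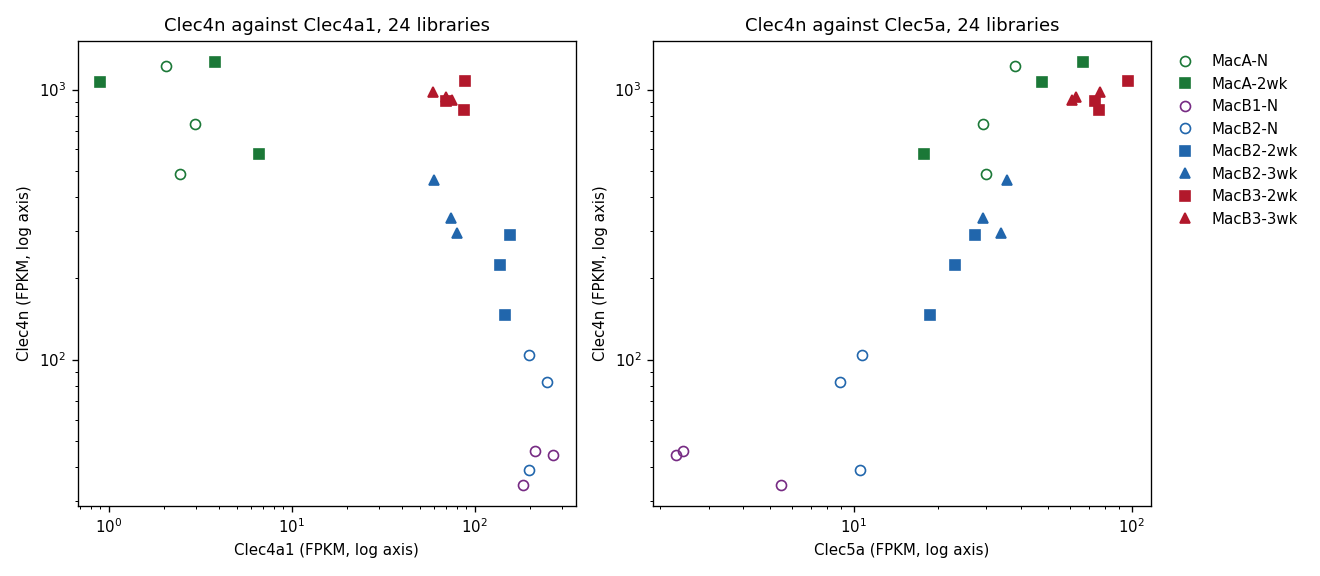
Each point is 1 library, with Clec4n in FPKM against Clec4a1 (left) and against Clec5a (right), all axes log; open symbols are naive and filled ones tumour-bearing. MacB libraries run from high Clec4a1 and low Clec4n in naive lung to the reverse in MacB3, MacA libraries lie apart at low Clec4a1, and Clec5a rises with Clec4n.

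The genes whose levels were most like each receptor over the 24 libraries, among 5629 genes whose mean reached 20 FPKM in at least 1 group, were ranked by Pearson r of log2 levels. They were Fth1 (0.96), C5ar1 (0.96), Atp6v1c1 (0.96) for Clec4n, where Fth1 encodes the ferritin heavy chain and C5ar1 the C5a receptor. For Clec4d they were Tgfbi (0.94), Pkm (0.94), Esd (0.93), and for Clec4e Zfp800 (0.89), Ogfr (0.88), Zbp1 (0.88). Clec7a was followed by Vps26a (0.94), Tlr2 (0.94), Tnfsf13 (0.93), of which Tlr2 is a receptor for bacterial lipopeptides. Clec5a was followed by Lhfpl2 (0.95), Aldoa (0.93), Cstb (0.93), where Aldoa is a glycolytic enzyme, as is Pkm beside Clec4d. Clec4a1 had Susd3 (0.99), Plbd1 (0.99), Sema4d (0.98), and Clec4a3 had Smpdl3a (0.94), Fgr (0.92), Ap1s2 (0.91), of which Fgr is a Src family kinase. For Clec4a2 they were Cox7b (0.92), Vma21 (0.91), Ifi30 (0.91), and for Clec12a Trex1 (0.91), Rnf114 (0.89), Actr3 (0.89), where Trex1 is a DNA exonuclease.

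Of the signalling partners of the receptors, the 4 given here were chosen for display after their values were seen. Fcer1g, the FcRγ adaptor, ranged in group means from 2453 ± 523 FPKM in MacA-2wk to 8039 ± 772 in MacB3-2wk. Tyrobp, which encodes DAP12, ranged from 467 ± 83.2 in MacA-2wk to 1117 ± 514 in MacB2-N. Syk ranged from 67.5 ± 5.36 in MacB3-3wk to 143 ± 34.2 in MacB1-N, and Card9 from 19 ± 6.12 in MacB2-3wk to 45.3 ± 8.90 in MacA-N. Fcer1g was 6146 ± 1932 in MacB2-N and 4420.4 ± 1290.5 in MacB2-3wk, where its difference was not called.

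Related genes in 6 lists were counted in the same fit, which describes them and gives no test of a list. In MacB2-3wk against MacB2-N, 1 of 29 adaptor and proximal signalling genes rose and 9 fell (median log2 fold change -0.60, against 0 over all genes). Over all genes, 9.67% were called higher and 5.04% lower in this comparison. Values of named genes are means ± SD of the first and the second group (n = 3), with the adjusted p of limma in brackets. The NF-kB subunit Rel was 26.9 ± 7.04 against 105 ± 4.62 FPKM (adjusted p = 0.000188). Of 19 genes known as targets of Card9 signalling, the 6 that were called all rose (median 0.22). Among them the chemokine Cxcl1 was 100.2 ± 35.1 against 4.11 ± 1.52 FPKM (4.38e-07) and the interleukin-1 antagonist Il1rn 431 ± 105 against 65.3 ± 16 (4.81e-06). Of 30 other C-type lectin genes, 3 rose and 9 fell (median -0.15); Clec4b1, a cluster neighbour, was 0.958 ± 0.585 against 7.52 ± 0.869 FPKM (0.000196) and Cd209a, a DC-SIGN homologue, 4.43 ± 0.475 against 20.4 ± 4.69 (0.000401). Of 11 inhibitory phosphatase and adaptor genes 1 rose and 3 fell (median -0.99), of 18 regulators 1 rose and 7 fell (-0.63), and of 19 partner pattern recognition receptors 3 rose and 4 fell (-0.36). The 9 receptor genes had a median of 0.16. Csf3r, counted among the regulators, is also 1 of the 12 neutrophil markers.

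In MacB3-2wk against MacB2-2wk, 4 of the 19 Card9 targets were called, all of them higher (median 0.59, against -0.08 over all genes), with Egr2 at 413 ± 29.9 against 121 ± 44.1 FPKM (0.00338) and Tnf at 113 ± 11.6 against 50.3 ± 6.62 (0.0246). Over all genes, 3.15% were called higher and 4.21% lower. Other C-type lectins were higher in 4 and lower in 4 cases: the mannose receptor Mrc1 was 83.9 ± 33.5 against 7.83 ± 1.14 FPKM (2.19e-05) and Mgl2, a galactose-binding lectin, 51.5 ± 7.17 against 8.95 ± 7.09 (0.00142). Adaptor genes were higher in 1 and lower in 4 of 29 (median -0.40). The transcription factor Maf was 94.7 ± 5.36 against 31.4 ± 2.80 FPKM (7.99e-06), 1 regulator of 18 called higher, while 3 were lower. At 3 weeks none of the 19 Card9 targets was called by limma, with 4 at an unadjusted p under 0.05 and a median of -0.16, against -0.04 over all genes. The shares of all genes called at 3 weeks were 1.61% higher and 1.03% lower. The regulators called at that time were 3, all of them higher, and the other C-type lectins were higher in 4 and lower in 2 cases. Mrc1 was 78.3 ± 20.7 against 14.5 ± 6.98 FPKM (0.000781) and Mgl2 55.8 ± 17.6 against 4.67 ± 3.07 (0.000252).

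In naive lung, 11 of 29 adaptor genes were called, all of them higher, in MacB1-N against MacA-N (median 0.86, against 0.12 over all genes). There, 15% of all genes were called higher and 8.71% lower. In MacB2-N against MacA-N, 12 adaptor genes were higher and 1 lower (median 0.88 against 0.03). The shares of all genes were 10.7% higher and 10.2% lower. These comparisons share the MacA-N libraries. Nfatc2, a calcium-dependent transcription factor downstream of these receptors, was 69 ± 10.1 against 0.706 ± 0.433 FPKM in the first (2.3e-12) and 33.1 ± 7.74 against 0.706 ± 0.433 in the second (2.56e-11). Other C-type lectins were higher in 15 and lower in 6 of 30 genes in MacB1-N, among them Mgl2 at 268 ± 32.6 against 1.29 ± 1.09 FPKM (2.26e-09). In MacB2-N the counts were 6 higher and 8 lower, with Mrc1 at 8.03 ± 2.64 against 339 ± 42.2 (2.98e-09) and Ly75, which encodes DEC-205, at 0.493 ± 0.397 against 73.4 ± 12 (1.36e-09). In MacB3-2wk against MacB1-N, 2 of the other C-type lectins were higher and 15 lower (median -1.31, against -0.11 over all genes), with Cd209a at 2.91 ± 1.78 against 174 ± 49.6 FPKM (1.36e-09), while 7 of 19 Card9 targets were higher and 3 lower, with Il1rn at 1016 ± 164 against 65.5 ± 4.12 (2.74e-08). Here 8.32% of all genes were called higher and 13.1% lower. Of the 19 partner receptors, 6 were higher and 3 lower in this comparison (median 0.08). The scavenger receptor Msr1 and the lipid receptor Trem2, counted among them, were 131 ± 21.5 against 7.68 ± 3.11 and 268 ± 47.5 against 4.61 ± 0.847 FPKM (5.98e-07 and 5.39e-09). Treml4, from the same list, was lower, at 17.1 ± 5.47 against 351 ± 113 FPKM (6.67e-07).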

How the data were processed

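Expression values of 24 libraries were read from 1 deposited table of 37979 genes, whose header named no unit. The FPKM values were the output of Cufflinks 2.0.2 as run by the authors, after TopHat2 (version 2) alignment to mm10 and a FastQC check, per the submitters' processing notes. Whether strand was used, and how reads of similar genes were assigned, were not stated in those notes. Loci in the table did not overlap GRCm38 for any of the 9 genes (starts about 50 kb lower), so positions were taken from GENCODE M21 by Ensembl identifier.

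Values were transformed to log2(FPKM + 1), with a pseudocount of 1. Genes whose mean reached 1 FPKM in some group, 17156 in number and all 9 members among them, entered a limma fit over all 24 libraries (limma 3.58.1, R 4.3.3). It had a mean for each group, a trend in the empirical Bayes moderation and 16 residual degrees of freedom. P values were two-sided and adjusted over all genes by Benjamini-Hochberg within each of 13 pairwise comparisons and 2 differences of differences. The method was tested on simulated data. The 3 libraries within each group were from separate experiments, per the labels' protocols. Replicate numbers pair the MacB libraries by run lane, per the labels; deviations of same-numbered libraries from their group means correlated at -0.073 to 0.21.

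The members and the gene lists were chosen with earlier results of these data known. From each list up to 4 called genes with the smallest adjusted p could be named per comparison, and for each member the 3 genes of highest correlation. Alternatives were the pseudocount, the filter, median-ratio and quantile scaling, a replicate block, fits of fewer groups, and leaving out each library. One marker, Adgre1, did not match the table.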

Additional observations from a re-analysis of the deposited data

How the results depend on the processing

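Directions of the called differences held under every alternative run, and no call was reversed. Quantile normalization moved the median of all genes by -0.15 (log2) in MacB1-N against MacA-N, -0.11 in MacB1-N against MacB2-N and 0.12 in MacB3-2wk against MacB1-N; no other shift by a scaling passed 0.1. Of the counts of receptor genes called, that of MacB2-3wk against MacB2-2wk went from 1 to 0 with a pseudocount of 0.1 and to 0 without a filter on low values, and that of MacB3-3wk against MacB2-3wk from 1 to 0 without the filter. With only the groups compared in the fit, the count was 1 in MacB1-N against MacB2-N, 0 in MacA-2wk against MacA-N and 0 in MacB2-2wk against MacB2-N. Fitting the 18 MacB libraries alone, an alternative chosen after seeing the data, gave 3 in MacB2-2wk against MacB2-N and 2 in MacB2-3wk against MacB2-2wk. The cause was not tested.

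Same-numbered MacB libraries shared a run lane, and 7 of the 18 correlated best with their own number. With the replicate number as a block, the count in MacB3-3wk against MacB2-3wk was 0. With the block, which is the run lane among MacB libraries, and the MacB libraries alone, it was 3 in MacB2-2wk against MacB2-N and 2 in MacB2-3wk against MacB2-2wk, the counts also obtained without the block. The calls that a block changed are given beside their results, and it changed no other call of the 9 genes.

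Leaving out 1 library at a time gave 5 to 7 genes called in MacB1-N against MacA-N, 7 to 8 in MacB2-N against MacA-N, 1 to 5 in MacB1-N against MacB2-N, 0 to 1 in MacA-2wk against MacA-N and 0 to 1 in MacB2-2wk against MacB2-N. It gave 5 to 6 in MacB2-3wk against MacB2-N, 0 in every case in MacB2-3wk against MacB2-2wk, 2 in every case in MacB3-2wk against MacB2-2wk, 0 to 1 in MacB3-3wk against MacB2-3wk and 0 in every case in MacB3-3wk against MacB3-2wk. The remaining ranges were 4 to 7 in MacB3-2wk against MacA-2wk, 7 in every case in MacB2-2wk against MacA-2wk and 5 to 7 in MacB3-2wk against MacB1-N. The difference between the 2-week changes of MacB2 and MacA had 0 to 1, where Clec4a1 was called at -1.35 without replicate 2 of MacA-2wk (adjusted p = 0.0495), and the other difference of changes 0 in every case. With 3 libraries a group and no known depth, a missed threshold does not show that groups did not differ.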
